A study of Mus musculus with 2 samples.

Results

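MHC class II-high cells were studied in 2 single-cell RNA-seq libraries of mouse blood, 1 from wild-type (WT) mice and 1 from APP/PS1 mice, a transgenic model of the amyloid deposits of Alzheimer's disease. Each library was made from 3 pooled female mice at 7 months of age, with no treatment, after blood had been enriched for neutrophils with a commercial kit. There is 1 library per genotype, so the genotype and the library cannot be told apart, no test was run, and every interval given covers counting error only. A cell was taken as MHC class II-high when it held at least 1000 unique molecular identifiers (UMIs), at most 10% mitochondrial UMIs, less than 4% of its UMIs from S100a8 and S100a9, at least 1 UMI of Csf1r or Flt3, no UMI of Cd79a, Ms4a1, Cd3e, Cd3g or Trac, and at least 10 UMIs of H2-Aa, H2-Ab1 and H2-Eb1 together. These limits selected 841 cells of the 34768 barcodes in both libraries, 527 in WT and 314 in APP/PS1. They were set beside the low cells, which met the same limits with a UMI of Csf1r but held fewer than 10 UMIs of the 3 genes. There were 4701 low cells in WT and 3659 in APP/PS1.

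MHC class II molecules are pairs of an alpha and a beta chain that display peptides taken up from outside the cell to helper T cells. The invariant chain, encoded by Cd74, guides new pairs to the endosome, where H2-DM loads the peptide and H2-O holds H2-DM back, and the whole set is transcribed under Ciita. In blood the genes are used at high levels by B cells and conventional dendritic cells and at lower levels by a part of the monocytes, while neutrophils and most T cells of mice use them little.

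The WT library held 17123 barcodes and 92458623 UMIs, and the APP/PS1 library 17645 barcodes and 84870864 UMIs. The median MHC class II-high cell held 8895 UMIs from 2728 genes in the WT library, and 8376 UMIs from 2578.5 genes in that of APP/PS1. Low cells were shallower, at a median of 5981 UMIs in WT and 5937 in APP/PS1. The libraries shared 83 cell barcodes, of which 2 belonged to an MHC class II-high cell and 0 to such a cell in both. Among all cells that passed the limits other than the one on the H2 genes, here called gated cells, 65.8% in WT (95% Clopper-Pearson interval 64.5% to 67.1%) and 73.7% in APP/PS1 (72.3% to 75.1%) had no UMI of the 3 genes. There was no gap at the limit: 25 WT cells held 9 UMIs and 27 held 10, against 15 and 13 in APP/PS1. The count reached 359 UMIs in WT and 275 in APP/PS1, and the median MHC class II-high cell held 34 and 40.

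**Figure D1:**
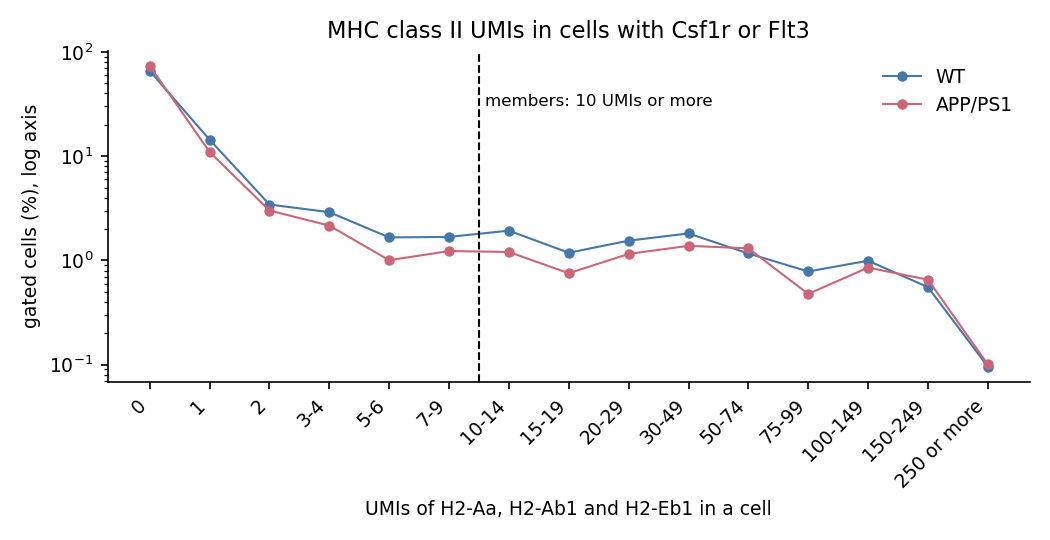
Share of gated cells (%, log axis) by the number of UMIs of H2-Aa, H2-Ab1 and H2-Eb1 in the cell, for WT and APP/PS1; the dashed line marks the limit of 10 UMIs. Both libraries have their highest point at 0 UMIs (65.8% and 73.7%) and no gap at the limit. The bins widen from 1 UMI to 100 UMIs, so the height of the points to the right depends on the width of the bins.

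Free RNA and cell pairs can put these genes into cells that do not use them. At least 10 UMIs of the 3 genes were found in 1.30% of WT neutrophils (1.07% to 1.57%), at a median of 2719 UMIs per cell, and in 3.25% of WT T cells (1.79% to 5.39%), at a median of 3813. The shares in APP/PS1 were 0.868% (0.690% to 1.08%) and 3.12% (1.89% to 4.83%). Of B cells, the class known to use the genes, 90.2% in WT and 86.5% in APP/PS1 passed the same count. Gated cells stood between them, at 10.1% in WT and 7.88% in APP/PS1. These classes were deeper, and the limit of 10 UMIs was not scaled to depth. The median was 5050 UMIs in WT and 5850 in APP/PS1 for B cells, and 6427 and 6224 for gated cells.

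H2-Aa and H2-Ab1 encode the alpha and beta chains of I-A, and H2-Eb1 the beta chain of I-E. They lie side by side on chromosome 17 of GRCm38 (GENCODE M21), H2-Ab1 at chr17:34257689-34269419, H2-Aa at chr17:34282744-34287823 on the minus strand and H2-Eb1 at chr17:34305867-34316674. Since the 3 genes chose the cells, their levels are a description. In WT cells with 10 or more UMIs, H2-Aa stood at 1762 CPM, the UMIs of a gene per 1000000 UMIs of the cells summed (exact Poisson interval 1730 to 1794), H2-Ab1 at 1543 (1514 to 1574) and H2-Eb1 at 950.0 (926.8 to 973.7). In APP/PS1 the levels were 2441 CPM (2388 to 2495), 2050 CPM (2001 to 2099) and 1330 CPM (1291 to 1370). The low cells held 35.9, 37.9 and 12.5 CPM of the 3 genes in WT and 27.2, 30.3 and 8.63 CPM in APP/PS1. Nearly all MHC class II-high cells carried all 3 genes: H2-Eb1, the gene found least often, had a UMI in 91.5% of them in WT and 93.6% in APP/PS1.

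Genes of this pathway share a promoter layout known as the X and Y boxes, which are bound by the RFX complex and by NF-Y and to which CIITA is recruited. The core of the X box (GCAAC) followed within 40 bases by the Y box (CTGATTGG) was searched on both strands of RefSeq promoters (GRCm38.p6, 250 bases before to 50 after the start of transcription), and the motifs do not overlap each other. The Y box alone was found in 4.10% of 32851 promoters, and the pair in 44 of them (0.134%). Of the 79 genes described next that lay above the low cells in both libraries, 56 had an entry by symbol. The pair was found in H2-Aa, H2-Eb1 and H2-Oa, a chain of the H2-O pair. H2-Aa and H2-Eb1 are genes of the rule, so this count describes the choice of cells and tests nothing. H2-Ab1 had no entry. Of 13 promoters of the list of MHC class II presentation, 2 held the pair (15.4%), those of H2-Eb2 and H2-Oa. The sequence of H2-Eb2, which had few UMIs in these cells, is not shown. Those of H2-Aa, H2-Eb1 and H2-Oa are shown because the genes define or accompany the cells. They are printed 5′ to 3′ on the strand of the gene, with GCAAC and CTGATTGG in capitals. They lie at chr17:34287827-34287934 (minus strand), chr17:34305745-34305852 (plus) and chr17:34092273-34092378 (plus) in this order. The Y box began 51, 62 and 46 bases before the start, with 25, 24 and 25 bases between the motifs.
H2-Aa: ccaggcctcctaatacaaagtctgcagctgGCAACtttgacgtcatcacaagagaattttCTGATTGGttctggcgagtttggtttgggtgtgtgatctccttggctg
H2-Eb1: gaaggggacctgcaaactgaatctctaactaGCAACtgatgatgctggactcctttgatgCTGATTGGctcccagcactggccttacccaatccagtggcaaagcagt
H2-Oa: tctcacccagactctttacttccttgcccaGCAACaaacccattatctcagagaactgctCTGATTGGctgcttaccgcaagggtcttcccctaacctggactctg
The letters describe these windows only, and binding was not measured.

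The transcripts of MHC class II-high cells were compared with those of the low cells, to see what else set them apart. For each library the UMIs of all MHC class II-high cells and of all low cells were summed, and a gene counted as past the fold when its CPM differed by a log2 ratio of 1 or more in the same direction in both libraries, with at least 50 UMIs in each library over both kinds of cell. Of 10197 genes with enough UMIs, 79 were higher (0.775%) and 87 lower (0.853%) in MHC class II-high cells. The median log2 ratio over all these genes was -0.02 in WT and -0.01 in APP/PS1. The rule used this contrast, so the counts describe the cells and test nothing.

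Of the 16 genes of the list of MHC class II presentation, 15 had enough UMIs, 6 were past the fold upwards and 0 downwards, and their median log2 ratio was 0.62 in WT and 0.57 in APP/PS1. Cd74 stood at 4538 CPM in MHC class II-high cells and 361 CPM in low cells of WT, and at 5846 and 297 CPM in APP/PS1, log2 ratios of 3.65 and 4.30. Ciita, the master regulator, stood at 72.1 against 7.62 CPM in WT and 95.6 against 5.16 CPM in APP/PS1, log2 ratios of 3.24 (exact conditional interval 3.02 to 3.47) and 4.21 (3.91 to 4.53). It was seen in 49.7% of WT and 48.4% of APP/PS1 MHC class II-high cells, and in 3.83% and 2.43% of low cells. Of the chains of H2-DM, H2-DMb1 had log2 ratios of 2.69 and 3.03 and H2-DMa of 1.53 and 1.59, while H2-DMb2 reached 0.95 in WT and 1.39 in APP/PS1 and so missed the fold. The chains of H2-O were scarce but higher, H2-Oa at 6.01 against 1.39 CPM in WT and 9.19 against 1.13 CPM in APP/PS1, and H2-Ob at log2 ratios of 1.49 and 2.21. H2-Eb2 was too scarce to be counted, with 9 UMIs in MHC class II-high cells and 8 in low cells of WT, and 15 and 4 in APP/PS1.

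Other genes of the list were not past the fold. Ctss, the protease that trims the invariant chain, stood at 1316 CPM in MHC class II-high cells and 1290 CPM in low cells of WT. Rfx5, Rfxank and Rfxap, the RFX subunits, had log2 ratios between -0.14 and 0.44. Ifi30, which reduces disulfide bonds in the endosome, lay higher by 0.62 in WT and 0.57 in APP/PS1, below the fold. Of the genes of costimulation and coinhibition, 8 of 9 had enough UMIs, 0 were past the fold upwards and 2 downwards. Cd274, which encodes the inhibitory ligand PD-L1, stood at 32.9 against 75.1 CPM in WT and 28.2 against 67.2 CPM in APP/PS1. Pdcd1lg2, its relative PD-L2, had only 12 and 3 UMIs in MHC class II-high cells. Cd86 had a log2 ratio of 0.37 in both libraries, and Cd40 of 0.61 in WT and 0.38 in APP/PS1.

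Genes of conventional dendritic cells were part of the profile. Cd209a, a C-type lectin of type 2 dendritic cells and of monocytes that become dendritic cells, had the highest mean ratio outside the rule genes. It stood at 138 CPM (129 to 147) against 5.62 CPM in WT and at 172 CPM (158 to 186) against 9.93 CPM in APP/PS1, log2 ratios of 4.62 and 4.11. It was uneven among cells, with a UMI in 26.9% of WT and 26.8% of APP/PS1 MHC class II-high cells, and in 1.55% and 1.97% of low cells. When every cell was thinned to 1000 UMIs, the minimum that all of them had, the shares were 10.4% and 8.60% against 0.255% and 0.519%. Of the list of type 2 genes, 4 of 7 with enough UMIs were past the fold upwards and 0 downwards, with medians of 1.61 and 1.49. Besides Cd209a these were the lectin Clec10a (1.82 and 2.53), the receptor chain Klrd1 (1.61 and 1.70) and Cd7 (3.27 and 1.49). Irf4 reached 1.20 in the WT library and 0.54 in that of APP/PS1, while Sirpa, which monocytes share, had -0.14 in both.

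Of the genes shared by dendritic cells, 4 of 8 were past the fold upwards and 0 downwards. These were Flt3, the cytokine receptor of the lineage, Kmo, Dpp4 and Batf3, and Flt3 is one of the genes of the rule. Batf3 stood at 50.3 against 19.5 CPM in WT and 77.5 against 26.0 CPM in APP/PS1. Zbtb46, a transcription factor of conventional dendritic cells, had only 20 and 18 UMIs in MHC class II-high cells, at 3.004 against 0.463 CPM in WT and 5.52 against 0.796 CPM in APP/PS1. A UMI of Csf1r and none of Flt3 was found in most of the cells, though Flt3 is too scarce at this depth for a cell without a UMI to be read as one that does not use it: 79.7% of WT cells (76.0% to 83.1%) and 82.2% of APP/PS1 cells (77.5% to 86.2%) had a UMI of Csf1r alone, 93 and 52 cells had both, and 14 and 4 had Flt3 alone.

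Of the genes of other dendritic cells, Xcr1, the chemokine receptor of type 1 dendritic cells, had 0 UMIs in MHC class II-high cells of both libraries, and 1 gene of that list, Clec9a, was past the fold, with 39 and 20 UMIs in MHC class II-high cells. Siglech, which marks plasmacytoid dendritic cells, had 0 UMIs, and 0 of 4 genes of that list were past the fold. Of the genes of activated, migrating dendritic cells, Fscn1 and Ccl22 had 0 UMIs and Ccr7 had 4 in WT and 0 in APP/PS1.

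Of 10 genes of classical monocytes, 0 were past the fold in either direction, with median log2 ratios of -0.41 in WT and -0.65 in APP/PS1. Ccr2, the receptor that brings classical monocytes into the blood, stood at 910 against 763 CPM in WT and 800 against 695 CPM in APP/PS1. Ly6c2 stood at 926 against 1082 CPM in WT and 851 against 1206 CPM in APP/PS1. Of 10 genes of nonclassical monocytes, 0 were past the fold upwards and 2 downwards, with medians of -0.69 and -0.42. These were Cd300e, at 41.8 against 120 CPM in WT and 34.3 against 101 CPM in APP/PS1, and Fcgr4, an Fc receptor, at log2 ratios of -1.13 and -1.17. Nr4a1, on which nonclassical monocytes depend, had -0.13 and -0.25.

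Further genes among the 10 with the highest mean ratio outside the rule genes were Slamf7, Ccnd1, Kctd14, Mrc1 and Tspan33. Slamf7, a receptor of activated leukocytes, stood at 43.4 against 5.03 CPM in WT and 57.0 against 7.42 CPM in APP/PS1. The log2 ratios were 2.42 and 3.39 for the cyclin Ccnd1 and 3.40 and 2.02 for Kctd14. They were 2.47 and 2.53 for the mannose receptor Mrc1, and 2.32 and 2.64 for the tetraspanin Tspan33. Mrc1 is on the macrophage list, of which it alone was past the fold among 3 genes with enough UMIs, while the complement gene C1qa had 4 UMIs in WT and 0 in APP/PS1.

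**Figure D2:**
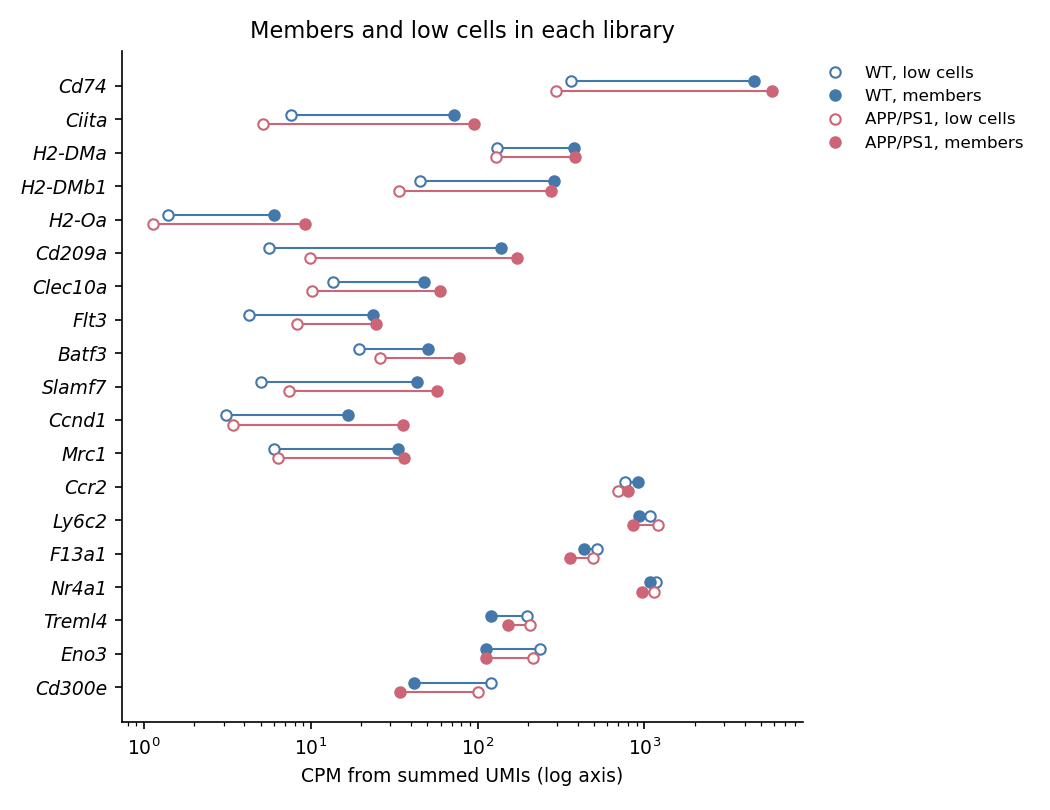
CPM from summed UMIs (log axis) of 19 genes in low cells (open circles) and MHC class II-high cells (filled circles, called members) of WT and APP/PS1. Lines are long and point the same way in both libraries for Cd74, Ciita, H2-DMb1 and Cd209a, and short for Ccr2, Ly6c2, F13a1 and Nr4a1.

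The 10 genes with the lowest mean ratio were Plet1, Psca, Mal, Csta1, Prss27, Upk3bl, Prss22, Cysrt1, Krt19 and Krt13, which are genes of epithelium. They rested on few low cells. Cells with at least 10 UMIs of 9 epithelial genes numbered 3 among the low cells of WT and 4 in APP/PS1, held 97.1% and 97.5% of the UMIs of these genes there, and numbered 0 among the MHC class II-high cells. Without them the count of genes past the fold downwards was 52 instead of 87.

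Markers of other cells that could share a droplet were measured in the same cells. Among the 14 B cell genes, Pax5 had 0 UMIs in both libraries, and 0 of the 5 with enough UMIs were past the fold. The most abundant, Ighm, stood at 169 CPM in the WT cells and 164 CPM in the APP/PS1 cells, and at 161 CPM in low cells of both. The list summed to 207 CPM in MHC class II-high cells of each library, against 202 and 206 CPM in low cells. Stricter limits on further B cell genes, not scaled to depth, left 304 of the 527 WT and 201 of the 314 APP/PS1 MHC class II-high cells. Of the gated cells they left 3993 of 5236 in WT and 3119 of 3985 in APP/PS1. The 7 platelet genes, led by Pf4, summed to 919 against 467 CPM in WT and 940 against 626 CPM in APP/PS1, with 0 past the fold and medians of 0.99 and 0.58. The 12 neutrophil genes, led by S100a9, summed to 9007 against 6684 CPM in WT and 7212 against 8624 CPM in APP/PS1. Haemoglobin genes stood at 5734 against 14668 CPM in WT and 2073 against 13198 CPM in APP/PS1, and without cells of over 5% haemoglobin UMIs, which were 9 and 1 of the MHC class II-high cells, at 991 against 976 CPM and 487 against 571 CPM. Scrublet called 9.30% of WT and 3.82% of APP/PS1 MHC class II-high cells doublets, and 9.76% and 9.62% of low cells. The part of these other cells in the results was not tested.

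Within the gated cells, the same genes were followed from cells without a UMI of the 3 H2 genes to cells with 100 or more. Cd74 went from 204 CPM at 0 UMIs to 2082 CPM at 10 to 19 and 8230 CPM at 100 or more in WT, and from 159 to 2863 and 9558 CPM in APP/PS1. Ciita went from 3.08 to 29.0 and 123 CPM in WT and from 1.96 to 40.9 and 157 CPM in APP/PS1. Each step up was a step up in both of these genes, in both libraries. Cd209a was concentrated at the upper end, at 35.5 CPM for 10 to 19 UMIs and 308 CPM for 100 or more in WT, and at 57.8 and 409 CPM in APP/PS1. Flt3 stood at 10.0 and 46.4 CPM in WT and at 12.7 and 36.2 CPM in APP/PS1 in the same steps. Monocyte genes did not move as one. Ccr2 ended higher, going from 724.5 CPM at 0 UMIs to 1031 CPM at 100 or more in WT and from 688 to 833 CPM in APP/PS1. Cd300e went from 133 CPM at 0 UMIs to 20.9 CPM at 100 or more in WT and from 105 to 26.9 CPM in APP/PS1, and Ly6c2 from 1053 to 752 CPM and from 1231 to 585 CPM. Cells with UMIs of the H2 genes were also deeper than cells without, with a median of 5326 UMIs at 0 and 9026 at 100 or more in WT, where the deepest cells were those with 50 to 99, and of 5600 and 9698 in APP/PS1, and CPM sets levels relative to that depth.

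**Figure D3:**
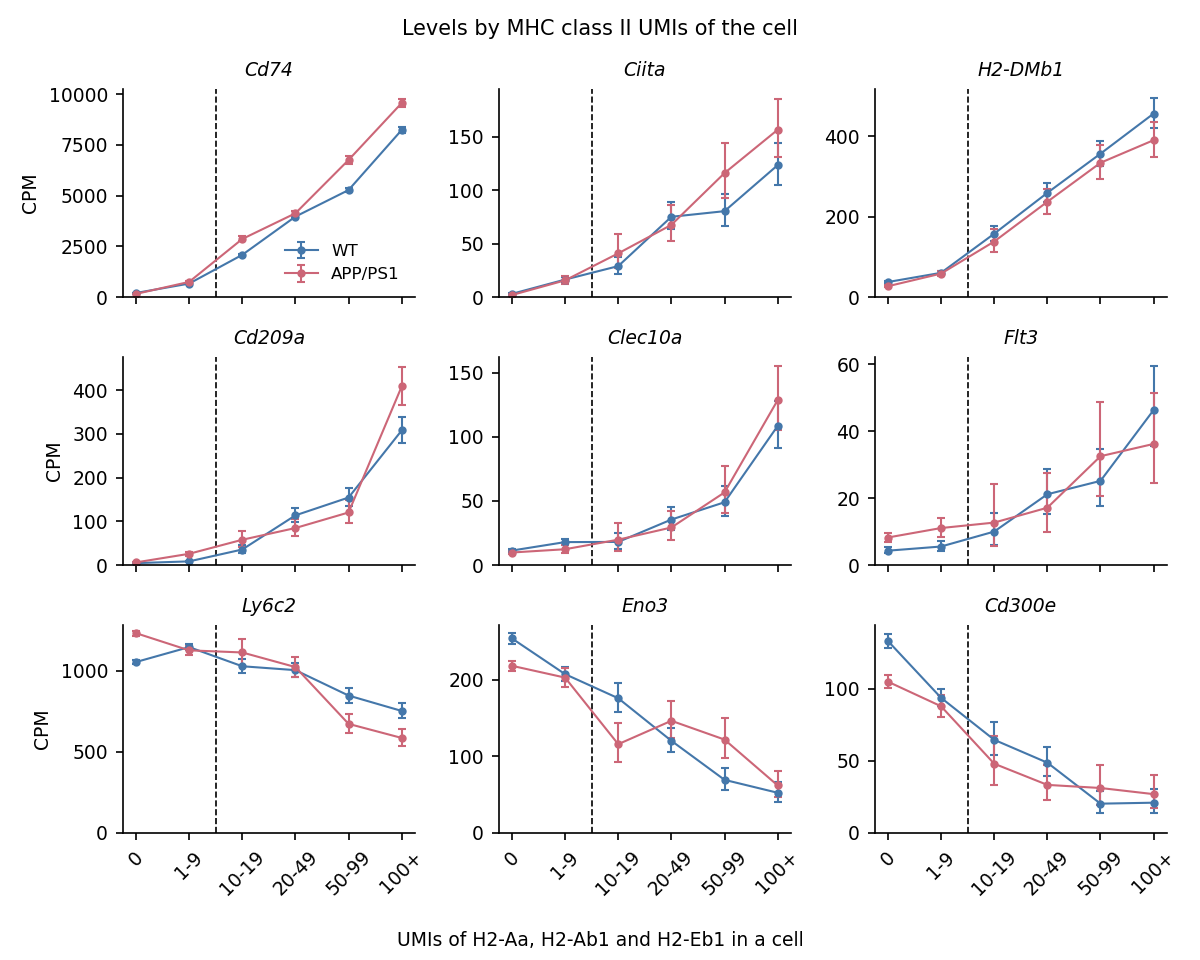
CPM of 9 genes (bars: exact Poisson intervals) in gated cells grouped by their UMIs of H2-Aa, H2-Ab1 and H2-Eb1, for WT and APP/PS1, with the limit of 10 UMIs as a dashed line. Cd74, Ciita, H2-DMb1, Cd209a, Clec10a and Flt3 are highest at 100 or more UMIs in both libraries, where Cd300e, Eno3 and Ly6c2 are lowest or close to it.

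The MHC class II-high cells were clustered without the 3 H2 genes and without genes that differed between the libraries, and fell into 6 clusters, each with cells of both libraries. Genes that lead a cluster describe it and are no test. The same holds for the counts of list genes past a log2 ratio in a cluster. The share of all genes past that ratio in the cluster is not given, so these counts are not set against a background. Cluster 0 was the largest, with 159 WT and 86 APP/PS1 cells. It was led by the chemokines Cxcl9 and Cxcl10 and by Ifit1bl1, Trim30c and Lyz1, and Ly6c2 stood at 1405 CPM there against 694 CPM in the other MHC class II-high cells. The leading chemokines were seen in few of its cells, Cxcl9 in 3.27% and Cxcl10 in 5.71%. Classical monocyte genes had a median log2 ratio of 0.83 in it, with 1 of 10 past 1 and 0 under -1. Of the nonclassical monocyte genes, 7 of 10 were under -1, with a median of -1.70. Of the detected macrophage genes, 3 of 6 were past 1. With only 1 classical gene past 1, the cluster was given no cell type name.

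Cluster 1, with 96 and 74 cells, was led by the lipid carrier Fabp4 and by Wnt6, Nrarp, Sdc1 and Eno3. Of the nonclassical monocyte genes, 8 of 10 were past a log2 ratio of 1, and 9 of 10 classical genes were under -1, and it was called nonclassical monocyte-like. Cd300e stood at 154 against 23.0 CPM and Treml4 at 460 against 84.5 CPM. Ciita was low in it, at 24.3 against 87.7 CPM, while Cd74 stood at 5871 against 4840 CPM.

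Cluster 4, with 71 and 33 cells, held the dendritic cell genes. It was led by Clec9a, P2ry10, Cd209d, Siglecg and Cd209a, and 7 of 8 detected type 2 genes and 6 of 9 shared dendritic cell genes were past a log2 ratio of 1. Cd209a was found in 88.5% of its cells at 785 CPM, against 84.8 CPM in the other MHC class II-high cells, and Flt3 in 56.7%, at 98.8 against 16.4 CPM. Zbtb46 stood at 16.5 against 2.55 CPM. Its leading gene is on the list of type 1 dendritic cells, of which 1 of 5 detected genes was past 1 and Xcr1 had 0 UMIs, so it is given by number. The 3 H2 genes took up a median of 0.952% of the UMIs of its cells, against 0.266% to 0.415% in the other clusters, and Ciita stood at 184 against 69.3 CPM. Of the detected monocyte genes, 5 of 9 classical ones were under a log2 ratio of -1 and 0 past 1, with a median of -1.002, and 8 of 9 nonclassical ones were under -1, with a median of -2.58, while Ccr2 was found in 100% of its cells at 1015 CPM. Of the B cell genes, 2 of 6 detected were past 1, Cd22 with 22 UMIs and Fcer2a with 3, and the list summed to 271 against 200 CPM.

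Cluster 2, with 99 and 61 cells, was led by Dhrs9, Cxcr2, Egr3, Hdc and Nlrp12. Of the neutrophil genes, 9 of 12 were past a log2 ratio of 1, its median depth was 17198 UMIs, and 28.8% of its cells were called doublets. Cluster 3, with 96 and 57 cells, was led by Kremen1, Hbb-bt, Ocstamp, Tent5c and Hba-a2, and 6 of 6 erythroid genes were past a log2 ratio of 1, with a median of 1.64. All 7 platelet genes were under -1 in it, as they were in cluster 1. Cluster 5 had 6 and 3 cells, was led by the cytotoxic genes Prf1, Gzma, Nkg7, Ccl5 and Gzmb, and 100% of its cells were called doublets. These 3 clusters were left unnamed. Only MHC class II-high cells were clustered, so leaving out clusters 2 and 5 removed no low cells. Without clusters 2 and 5, 76 genes were past the fold upwards over the low cells, 62 of them among the 79, and 281 downwards. Between the libraries, described next, this left 6 of the 22 genes higher and 31 of the 68 genes lower in APP/PS1.

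**Figure D4:**
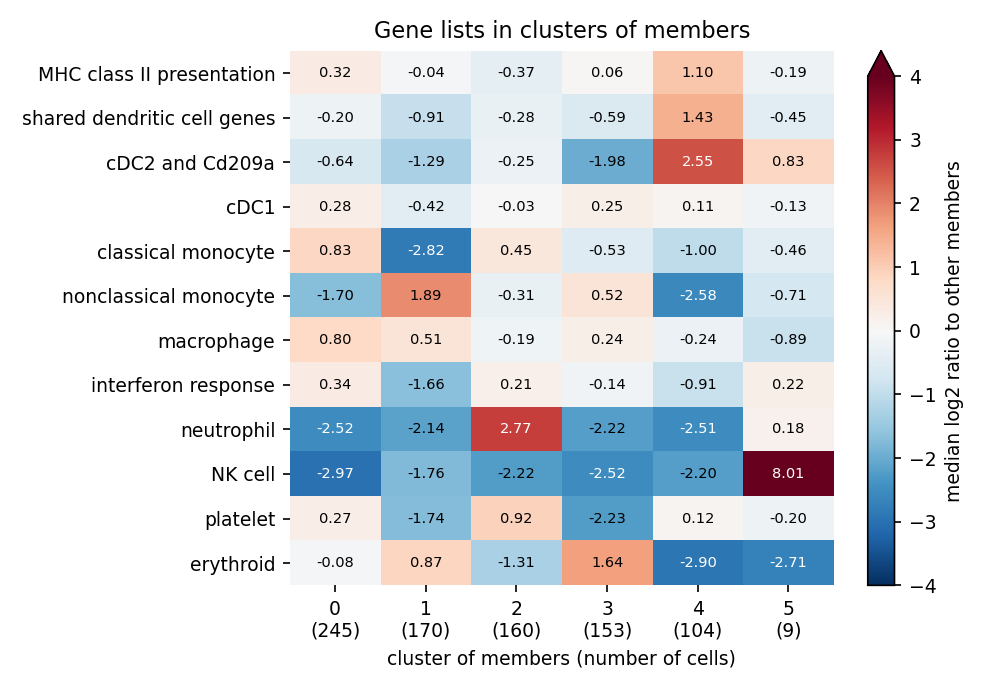
Median log2 ratio of each gene list (rows) in 6 clusters of MHC class II-high cells (columns, with the number of cells in brackets) to the other MHC class II-high cells, over the detected genes of the list. The type 2 list is highest in cluster 4 (2.55), the nonclassical monocyte list in cluster 1 (1.89), the neutrophil list in cluster 2 (2.77) and the NK cell list in cluster 5 (8.01, past the colour scale).

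The genotypes were then compared, which is the question the series was made for, within the limit that each is 1 library. MHC class II-high cells made up 10.1% of the WT gated cells (9.26% to 10.9%) and 7.88% of those of APP/PS1 (7.06% to 8.76%). The difference was -2.19 percentage points (Newcombe interval -3.35 to -1.01), and -1.17 (-2.35 to 0.0361) when stricter limits on B cell genes were set. Of all cells past the UMI and mitochondrial limits they were 3.24% (2.97% to 3.52%) and 1.88% (1.68% to 2.09%). The enrichment kit decides which cells other than neutrophils remain, so these are shares of what was left after it. Among gated cells with a UMI of Flt3, the share was 45.9% in WT and 25% in APP/PS1.

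The MHC class II-high cells that were found held more of the H2 transcripts per UMI in APP/PS1. The log2 ratio of APP/PS1 to WT was 0.47 (0.43 to 0.51) for H2-Aa, 0.41 (0.36 to 0.45) for H2-Ab1 and 0.49 (0.43 to 0.54) for H2-Eb1, and 0.45 (0.43 to 0.48) for their sum. In the low cells the ratios were -0.40, -0.32 and -0.54, and over all gated cells -0.06, -0.11 and -0.04. The level in MHC class II-high cells is thus a level above a limit of 10 UMIs and does not carry over to the gated cells as a whole. The sum lay higher in APP/PS1 in each of clusters 0 to 4, by log2 ratios of 0.68 (0.63 to 0.73), 0.43 (0.35 to 0.50), 0.58 (0.53 to 0.64), 0.27 (0.20 to 0.34) and 0.19 (0.13 to 0.25) in this order, and lower by -1.03 (-1.39 to -0.69) in the 9 cells of cluster 5. In cluster 4 the levels were 10264 CPM in WT against 11730 CPM in APP/PS1, and in cluster 0 they were 3790 and 6069 CPM.

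Other genes of the pathway differed less evenly. Cd74 had a log2 ratio of 0.37 (0.34 to 0.39) in MHC class II-high cells, -0.28 in low cells and -0.16 over all gated cells. Ciita had 0.41 (0.20 to 0.62) in MHC class II-high cells, -0.56 in low cells and -0.21 over all gated cells. H2-DMb1 had -0.06 (-0.18 to 0.05) in them and -0.45 over all gated cells, and H2-DMa 0.03 (-0.07 to 0.13). Of 14 presentation genes with at least 50 UMIs over both libraries, 0 were past a log2 ratio of 1 in either direction, and their median was 0.06. Cd209a had 0.31 (0.16 to 0.47). It was higher in APP/PS1 in cluster 0 (1.46) and cluster 2 (0.98). It was lower in cluster 3, with 19 UMIs in WT and 1 in APP/PS1, and in cluster 5, with 29 and 2. In cluster 4, where most of its WT UMIs were, it had -0.21 (-0.46 to 0.02).

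Across the transcriptome of MHC class II-high cells, 22 of 8640 genes were past a log2 ratio of 1 upwards (0.255%) and 68 downwards (0.787%), with a median over all genes of -0.02. The counting interval left out 0 for all 22 and for 66 of the 68. These genes were picked by the size of their ratio in the same counts, so their intervals describe them and test nothing. In the low cells 5 of the 22 and 13 of the 68 were past the same fold in the same direction. There, 153 of 11238 genes were past the fold upwards (1.36%) and 58 downwards (0.516%). Which genes passed depended on how the cells were chosen: when the H2 genes had to take up 0.2% of the UMIs of a cell instead, 18 and 49 genes passed, of which 5 and 24 were among these.

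Hebp1, which encodes a heme-binding protein, had the lowest ratio. It had 194 UMIs in the 527 WT cells and 1 UMI in the 314 APP/PS1 cells, 29.1 against 0.306 CPM, a log2 ratio of -6.57 (-11.88 to -4.08). In low cells it had 1081 UMIs in WT and 23 in APP/PS1, a log2 ratio of -5.11 (-5.78 to -4.52). Within clusters 0 to 4 the UMIs were 80, 18, 64, 26 and 4 in WT and 1, 0, 0, 0 and 0 in APP/PS1. Fam234b and Emp1, also among the 8 lowest, lie beside it on chromosome 6. Fam234b (chr6:135197977-135244955) overlaps the start of Hebp1, which lies on the minus strand (chr6:135137522-135198022), and had 46 UMIs in WT and 5 in APP/PS1. Emp1 (chr6:135362545-135383173), an epithelial membrane protein gene, stood at 79.9 and 12.9 CPM. After these values had been seen, the neighbours within 1 Mb on either side were added: of 10 genes there with at least 50 UMIs, these 3 were past the fold downwards and 0 upwards. Over all genes, 0.787% were past it downwards. The window was placed around these 3 genes, so the count describes that choice and tests nothing. Borcs5 had -0.997 (-1.65 to -0.39) and Dusp16 -0.86 (-1.11 to -0.62), while Ddx47 had 0.07 (-0.25 to 0.38).

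The other genes with low ratios were Hbegf, a growth factor of the EGF family, with 170 UMIs in WT and 4 in APP/PS1 (25.5 and 1.23 CPM, log2 ratio -4.38), Wnt11 (51 and 3 UMIs), the mitotic gene Ube2c (87 and 6), Prune1 (66 and 7) and Snrnp35, a subunit of the minor spliceosome (50 and 6). Wnt11 had 18 of its WT UMIs in cluster 4 and 20 in cluster 2. In low cells the log2 ratio was -2.25 for Hbegf, -1.08 for Ube2c, -0.53 for Prune1, -0.28 for Snrnp35 and -0.45 (-1.18 to 0.26) for Wnt11. Among the low cells of APP/PS1, the 3 cells with the most UMIs of the gene held 81.6% of the UMIs of Hbegf and 73.8% of those of Emp1. Cd14, the coreceptor for endotoxin on classical monocytes, was added to these after its values had been seen, at 287.5 and 97.4 CPM. Its log2 ratio was -1.56 (-1.74 to -1.39) in MHC class II-high cells and -1.14 in low cells.

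The 8 genes with the highest ratios were less far apart and, but for 1, scarce. Trf, which encodes transferrin, stood at 136 CPM in WT against 292 CPM in APP/PS1, from 905 and 954 UMIs, a log2 ratio of 1.10 (0.97 to 1.24). It lay higher in APP/PS1 in clusters 0 to 4, by 1.31, 1.60, 0.98, 0.91 and 0.77, and in low cells by 1.47. Ttc9 had 2.40 and 11.03 CPM, a log2 ratio of 2.20 (1.31 to 3.15), and Trdc, the constant region of the T cell receptor delta chain, 4.96 and 11.6 CPM. Aar2, Slf1, Rbm41, Mterf4 and the granule gene Ngp had between 24 and 45 UMIs in either library and log2 ratios between 1.11 and 1.39. Of the 16 genes at either end, Slf1, Rbm41, Mterf4, Wnt11 and Snrnp35 had an interval in low cells that held 0. Among the lists, 5 of 5 erythroid genes with at least 50 UMIs were past the fold downwards. Of the haemoglobin UMIs of the WT MHC class II-high cells, 83.1% were held by 9 cells. Without cells of over 5% haemoglobin UMIs, haemoglobin genes were still lower in APP/PS1, at 487 CPM against 991 CPM in WT. The count of genes past the fold downwards was then 58 instead of 68. Of 7 type 2 genes, 1 was past it upwards (Klrd1, 22.1 and 46.3 CPM) and 1 downwards (Cd7, 40.6 and 18.998 CPM), and of 9 neutrophil genes 1 upwards (Ngp). Downwards were also 1 of 7 genes of costimulation (Cd80, 17.0 and 7.05 CPM), 1 of 10 classical monocyte genes (Vcan, 48.5 and 21.4 CPM) and 1 of 12 interferon genes (Cxcl9, 7.06 and 2.14 CPM), and the other lists with genes tested had 0 in either direction.

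**Figure D5:**
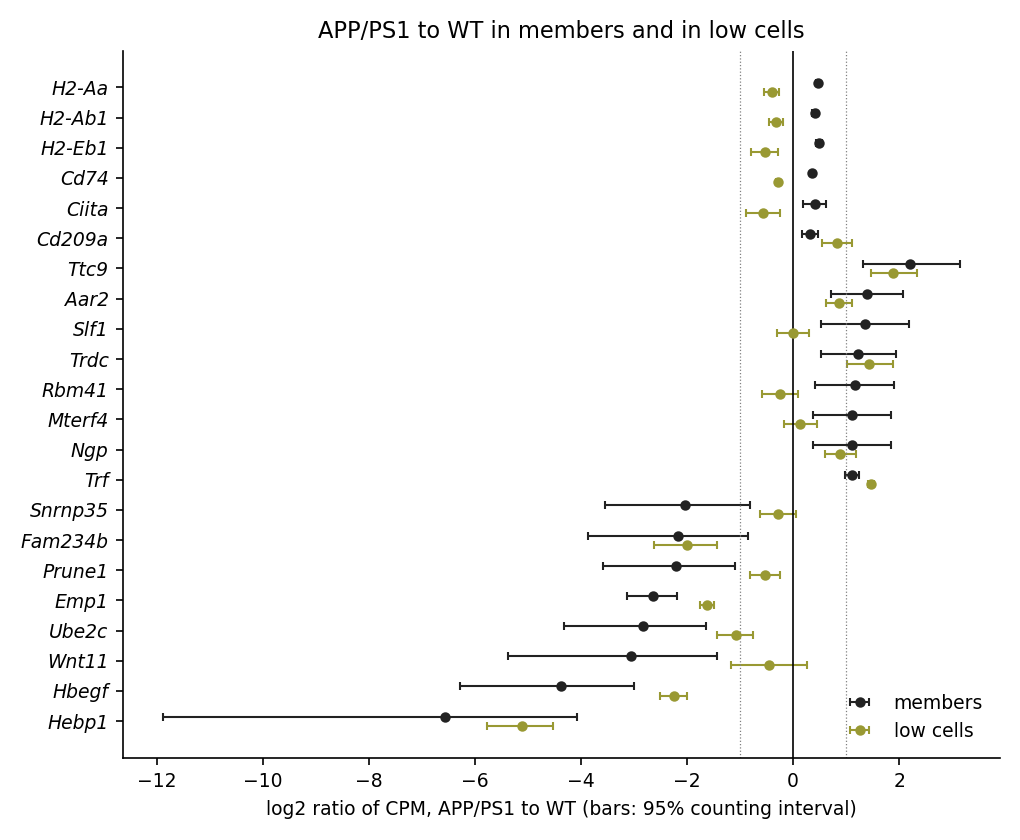
Log2 ratio of CPM, APP/PS1 to WT, in MHC class II-high cells (black, called members) and in low cells (olive), with exact conditional intervals and dotted lines at -1 and 1. H2-Aa, H2-Ab1, H2-Eb1, Cd74 and Ciita lie above 0 in MHC class II-high cells and below 0 in low cells, while Hebp1 and Hbegf are low in both and Trf and Ttc9 high in both.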

How the data were processed

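Blood neutrophils were enriched with the EasySep Mouse Neutrophil Enrichment Kit and libraries were made with 10x Genomics chemistry. The authors deposited raw UMI counts per gene and barcode from Cell Ranger 5.0.0 on mm10, with no normalization, for 17123 WT and 17645 APP/PS1 barcodes. Of these barcodes, 16281 and 16725 passed the UMI and mitochondrial limits used here. These counts were read with Python 3.11.15, numpy 2.4.6, pandas 2.3.3 and scipy 1.17.1. Cells were selected by the limits given above. UMIs were summed per library and kind of cell and divided by all UMIs of those cells (CPM). CPM have exact Poisson intervals, ratios exact conditional and shares Clopper-Pearson intervals, at the 95% level. A gene with 0 UMIs entered a ratio with a floor of 3 UMIs, and no ratio was given with 3 or fewer on both sides. The calculation of ratios and intervals was tried on simulated counts, where 95.7% of the intervals for APP/PS1 over WT held the true ratio over 8640 genes. This checks the calculation only. It does not show that the intervals hold for these cells, where a few cells can hold most UMIs of a gene. The members, gene lists and rules were chosen with earlier results of these data known.

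Genes were named by rank, and exceptions are marked. Over low cells they were the 10 highest mean ratios past the fold outside the rule genes, and the 10 lowest. Between libraries they were the 8 highest and 8 lowest past the fold whose interval left out 0. The 5 leading genes of each cluster and examples of the lists were also named. Doublets were called with Scrublet in scanpy 1.11.5 (expected rate 8%) and kept. Its automatic threshold was 0.217 in WT and 0.728 in APP/PS1, and 0.217 was used for both, chosen after the calls were seen. Clusters were made on members with 1500 variable genes, 15 principal components, 15 neighbours and the Leiden method at a resolution of 0.5, without integration. In the variable genes, 493 genes over 0.5 log2 apart between the libraries were left out. Library sizes by TMM came from edgeR 4.0.16 as an alternative only. Coordinates are those of GENCODE M21, promoters those of RefSeq. Alternatives were other limits on H2, UMI, Csf1r, Flt3 and B cell genes, doublet removal, other library sizes, the mean over cells, other count minimums and other resolutions. The 3 that leave out cells of epithelial genes, cells of over 5% haemoglobin, and clusters 2 and 5 were added after seeing the data.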

Additional observations from a re-analysis of the deposited data

Results flagged for a closer look

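For 11 of the 150 named or listed genes with enough UMIs in both kinds of cell, the log2 ratio of APP/PS1 to WT had opposite signs in MHC class II-high cells and in low cells, with each interval leaving out 0 and each ratio at least 0.25 in size. The difference between the ratios was not tested, since there is 1 library per genotype. The ratios were 0.47 and -0.40 for H2-Aa, 0.41 and -0.32 for H2-Ab1 and 0.49 and -0.54 for H2-Eb1. The UMIs of these genes divide the cells into the kinds compared, so their opposite signs are a description and test nothing. For other genes the ratios were 0.37 and -0.28 (Cd74), 0.41 and -0.56 (Ciita) and 0.31 and -0.40 (Clec10a). These genes rose with the UMIs that divide the cells, so their opposite signs are a description too. From no UMI to 100 or more in WT, Cd74 rose from 204 to 8230 CPM, Ciita from 3.08 to 123 and Clec10a from 11.3 to 108. Over all gated cells the ratio was -0.16 for Cd74 and -0.21 for Ciita. The opposite order was a ratio below 0 in MHC class II-high cells and above 0 in low cells. It was found for Cd7 (-1.09 and 0.69) and for Cd69, an early activation marker of lymphocytes (-1.34 and 0.90). It was also found for the neutrophil genes S100a9 (-0.33 and 0.36), Retnlg (-0.32 and 0.49) and Hdc (-0.41 and 0.61). Of these, S100a9 is limited by the rule, in both kinds of cell.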

How the results depend on the processing

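No paired analysis was possible because each genotype has 1 library and the labels give no replicate numbers. The share in APP/PS1 was lower under each limit tried, but the difference of -2.19 percentage points was -1.03 (-2.03 to -0.0122) with a limit of 20 UMIs, -1.25 (-2.28 to -0.194) with a limit of 0.2%, and -1.17 with stricter B cell limits, where the interval of -2.35 to 0.0361 held 0. It was -20.9 among cells with Flt3. The log2 ratio of the summed H2 genes was 0.326 with a limit of 20 UMIs, 0.303 with a limit of 0.2% of the UMIs of the cell, 0.385 without called doublets, 0.349 with stricter B cell limits and 0.385 without clusters 2 and 5.

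Counts of genes past the fold moved with the minimum of UMIs, which sets how many genes are counted, and with the choice of cells. With minimums of 20, none and 200 UMIs there were 110, 348 and 35 genes higher and 146, 159 and 39 lower than in low cells, and 114, 420 and 4 higher and 176, 466 and 14 lower in APP/PS1 than in WT. With Flt3 required, 189 were higher and 206 lower than in low cells. The mean over cells gave 154 lower than in low cells and 38 higher in APP/PS1. Without the cells of epithelial genes 52 were lower than in low cells. Without clusters 2 and 5, which held no low cells, there were 281, and the cause of this was not tested.

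With the choices of cells given next, a smaller share of the calls between the libraries remained than of those against the low cells. With stricter B cell limits, 47 of the 79 genes higher and 61 of the 87 lower than in low cells remained. Between the libraries, 5 of the 22 and 23 of the 68 remained. In the same order, 62, 74, 6 and 31 remained without clusters 2 and 5, and 73, 80, 8 and 44 with a limit of 20 UMIs. With TMM library sizes 78, 87, 22 and 68 remained. Genes under the minimum of 50 UMIs counted as lost. With stricter B cell limits, 6813 instead of 8640 genes were tested between the libraries, and 9564 instead of 10197 against low cells. Without the cells of epithelial genes, ratios to low cells changed sign, to 1.695 for Mal, 0.958 for Prss27, 0.406 for Prss22, 0.543 for Krt19 and 1.380 for Krt13 in APP/PS1, and to 0.927 for Csta1, 0.111 for Upk3bl, 0.474 for Krt19 and 0.044 for Ltf in WT. TMM factors lay between 0.9895 and 1.004. Genes near 50 UMIs have intervals over 1 log2 unit wide, and differences between mice cannot be seen in pooled libraries.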

Other observations

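Of 11 interferon-induced genes with enough UMIs, 0 were past the fold over low cells, with a median log2 ratio of 0.46 in WT and -0.14 in APP/PS1. Isg15 stood at 98.98 against 69.8 CPM in WT and 94.7 against 123 CPM in APP/PS1, and Irf7 at 172 against 134 CPM and 179 against 151 CPM. Between the libraries, the 12 genes had a median log2 ratio of 0.11 in MHC class II-high cells and 0.53 in low cells. Rsad2 had 0.26 (0.08 to 0.44) in MHC class II-high cells and 1.03 in low cells.

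Ccrl2, a receptor that binds chemerin, was picked out after its values had been seen. It stood at 81.0 CPM in the MHC class II-high cells of WT and at 162 CPM in those of APP/PS1, a log2 ratio of 1.002 (0.83 to 1.18). In low cells it stood at 101 and 223 CPM, a log2 ratio of 1.14 (1.08 to 1.20). It was found in 42.5% of WT and 54.5% of APP/PS1 MHC class II-high cells, and in 36.5% and 53.2% of low cells.

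Of the lists of other blood cells, the genes past the fold over low cells in both libraries, to be read against 0.853% of all genes downwards, were 0 of 2 T cell genes, 0 of 1 plasma cell gene, 0 of 2 genes of activated dendritic cells, and downwards 1 of 7 NK cell genes (Eomes), 1 of 11 neutrophil genes (Ltf), 1 of 2 genes of basophils and mast cells (Mcpt8) and 5 of 5 erythroid genes. The erythroid values, and that of Ltf in WT, rested on few cells. Without the cells of epithelial genes, the log2 ratio of Ltf was 0.044 in WT, and without cells of over 5% haemoglobin UMIs the haemoglobin genes stood at 991 against 976 CPM in WT and 487 against 571 CPM in APP/PS1. Between the libraries, 5 of 5 erythroid genes were past the fold downwards in APP/PS1, with a median log2 ratio of -1.50. Of the haemoglobin UMIs of the WT MHC class II-high cells, 83.1% were held by 9 cells. Without cells of over 5% haemoglobin UMIs, the MHC class II-high cells of APP/PS1 still stood lower, at 487 CPM against 991 CPM in WT.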
